A study of Mus musculus with 26 samples.

Results

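Ifi202b and Cap1 are the genes whose intensity lay furthest above cultured osteoblasts in all 3 osteosarcoma groups of a mouse array series. They were chosen on that property: among 12887 genes with a measured probe set, they had the largest and the next largest value of the smallest of their 3 differences from osteoblasts. Each gene has 2 probe sets, the sets of oligonucleotides that together report 1 transcript region, so the members are 4 of 45101 probe sets on the array. All 4 passed the filter on low values, which kept 27308 probe sets; since a probe set needed only 3 of the 26 arrays above the filter, the tumour groups alone were enough to carry them through.

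The 26 arrays each held RNA of 1 sample. As control the series took 3 osteoblast cultures, called WT and brought to differentiate in vitro. Against these stood 15 primary osteosarcomas (malignant tumours of bone-forming cells), 4 cell lines from such tumours and 4 secondary tumours. Secondary tumours 29, 64 and 94 are labelled as transplants, while number 66 is labelled as tumour tissue from an osteosarcoma cell line, and its title also calls it a cell line. All 4 secondary tumours and the lines 176, 179 and 182 carry the number of a primary tumour in the series; line 213 has no primary tumour here. The labels describe the tumours as coming from a mouse model. Not given in the sources used are its alleles, any driver transgene, and the strain, age and sex of the animals, osteoblast donors included. Whether different animals gave the 3 osteoblast cultures is not stated, so their spread may be technical. With 3 or 4 arrays in 3 of the groups, the number of arrays limits the precision.

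Ifi202b encodes p202, a member of the interferon-inducible Ifi200 (HIN-200) family of DNA-binding proteins, whose genes lie together in a cluster. p202 has HIN domains, which bind double-stranded DNA, but lacks the pyrin domain through which its relative Aim2 recruits the adaptor Pycard to build an inflammasome, and it is known to oppose Aim2. The expression of Ifi202b is known to differ between inbred mouse strains. Cap1 encodes cyclase-associated actin cytoskeleton regulatory protein 1, named after the yeast protein that binds adenylyl cyclase. It strips cofilin from actin monomers and recharges them, so that actin filaments can be taken apart and rebuilt.

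The stretches just upstream of both transcription starts are shown because both genes were low in the same cultures and high in the same tumours. They are the reference sequence from RefSeq (build GRCm38.p6), not sequence read from these animals, written 5′ to 3′ on the strand of the gene, and they end at the base before the annotated start. Both genes lie on the minus strand, Ifi202b at chr1:173982845-173983094 and Cap1 at chr4:122886077-122886326. Capitals mark matches to the motifs searched.
Ifi202b: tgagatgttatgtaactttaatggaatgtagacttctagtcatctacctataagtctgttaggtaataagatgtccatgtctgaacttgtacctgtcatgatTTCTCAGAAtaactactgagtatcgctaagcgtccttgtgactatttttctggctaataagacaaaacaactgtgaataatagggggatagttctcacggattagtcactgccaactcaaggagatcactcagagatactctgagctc
Cap1: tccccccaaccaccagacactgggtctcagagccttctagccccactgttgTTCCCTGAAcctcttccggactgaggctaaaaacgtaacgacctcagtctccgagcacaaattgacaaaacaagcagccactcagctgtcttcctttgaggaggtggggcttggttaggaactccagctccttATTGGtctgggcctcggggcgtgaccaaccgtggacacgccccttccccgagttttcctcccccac
The Ifi202b stretch had a G and C content of 38.4%, at percentile 9.05 of 32851 mouse promoters of the same length, whose median was 52.4%, and held 3 CG dinucleotides. The Cap1 stretch had 57.2%, at percentile 64.7, and 9 CG dinucleotides, against a median of 6. Motifs were searched on both strands. Neither stretch held the letters of an interferon-stimulated response element (GAAA and GAAA with any 2 bases between them, in 2.98% of promoters), a TATA box (TATAAA, 12.4%) or a GC box (GGGCGG, 32.7%). Each held 1 match to the letters of a gamma-activated site (TTCNNNGAA, 7.02%), 148 bases before the start in Ifi202b and 199 in Cap1, and Cap1 alone held a CCAAT motif (33.8%), 66 bases before the start and read on the opposite strand. These are matches of letters in short windows and were not tested for function.

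Ifi202b was near or below the lowest intensities that could be told apart in osteoblasts and was well measured in every tumour and line. Its probe set 1421551_s_at, annotated to Ifi202b alone, gave intensities of 15.1, 5.70 and 10.3 in osteoblast cultures 1, 2 and 3. The 15 primary tumours ran from 65.0 in tumour 94 through a median of 268 to 772 in tumour 183. The secondary tumours gave 274 (29), 389 (64), 323 (66) and 110 (94). The cell lines were the highest group, at 535 (176), 1321 (179), 680 (182) and 932 (213). No tumour or line overlapped the osteoblasts: the lowest primary tumour was 4.31-fold above the highest culture.

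Intensities were raised to a floor of 12.5, the 20th percentile of all values, and taken to log2, which puts the floor at 3.64. Mean log2 intensity of 1421551_s_at was 3.73 ± 0.16 in osteoblasts (SD, n = 3, with 2 cultures at the floor), 8.06 ± 0.81 in primary tumours (n = 15), 7.96 ± 0.81 in secondary tumours (n = 4) and 9.68 ± 0.57 in cell lines (n = 4). The difference from osteoblasts was 4.33 ± 0.45 on the log2 scale in primary tumours (SE; 20.1-fold), 4.22 ± 0.54 in secondary tumours (18.7-fold) and 5.95 ± 0.54 in cell lines (61.6-fold). These differences chose the gene and are given without a test. They also depend on the floor, because the osteoblast values sit at it: with the floor at the 40th percentile they were 3.01, 2.90 and 4.62.

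The other Ifi202b probe set, 1457666_s_at, is annotated to LOC100044068 as well as Ifi202b, so its signal cannot be assigned to Ifi202b alone, and it is called the shared probe set here. The "s" in both identifiers marks probe sets that can match transcripts of related genes. The shared probe set gave 7.63, 5.11 and 1.30 in the osteoblast cultures, all under the floor. It gave 67.1 (tumour 94) to 863 (tumour 183) in primary tumours with a median of 303, 275, 396, 422 and 110 in secondary tumours 29, 64, 66 and 94, and 629, 1491, 811 and 954 in lines 176, 179, 182 and 213. The same arrays were highest and lowest in the primary tumours and lines as on 1421551_s_at. With every osteoblast value at the floor, its differences are bounds: at least 24.7-fold in primary tumours, 21.4-fold in secondary tumours and 74.1-fold in cell lines. Over the 15 primary tumours the 2 probe sets correlated at r = 0.996 (Spearman's rho 0.986), although they share a gene annotation and may share target sequence.

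Cap1 differed from Ifi202b in that osteoblasts had a clear signal. Probe set 1417461_at gave 166, 83.3 and 110 in osteoblast cultures 1, 2 and 3. Primary tumours ran from 510 in tumour 353 through a median of 723 to 1539 in tumour 188. Secondary tumours 29, 64, 66 and 94 gave 1009, 832, 930 and 1116, the narrowest group, and lines 176, 179, 182 and 213 gave 2248, 875, 1137 and 1785. Again no tumour or line overlapped the osteoblasts, and the lowest primary tumour was 3.08-fold above the highest culture. Mean log2 intensity was 6.84 ± 0.50 in osteoblasts, 9.68 ± 0.48 in primary tumours, 9.92 ± 0.18 in secondary tumours and 10.47 ± 0.62 in cell lines (SD, group sizes as above). The differences from osteoblasts were 2.83 ± 0.29 (SE; 7.13-fold) in primary tumours, 3.07 ± 0.35 (8.42-fold) in secondary tumours and 3.62 ± 0.35 (12.3-fold) in cell lines, again as a description.

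The other Cap1 probe set, 1417462_at, gave the same order of groups with smaller differences. It read 120, 99.1 and 85.4 in the osteoblast cultures, 329 (tumour 182) to 884 (tumour 188) with a median of 440 in primary tumours, 822, 506, 589 and 662 in secondary tumours 29, 64, 66 and 94, and 1319, 524, 717 and 1167 in lines 176, 179, 182 and 213. Its folds over osteoblasts were 4.83 in primary tumours, 6.32 in secondary tumours and 8.69 in cell lines. The lowest primary tumour was 2.75-fold above the highest culture. Over the 15 primary tumours the 2 Cap1 probe sets correlated at r = 0.940 (rho 0.882). Tumour 188 was the highest primary tumour and line 176 the highest line on both, but the lowest primary tumour differed between them.

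**Figure D1:**
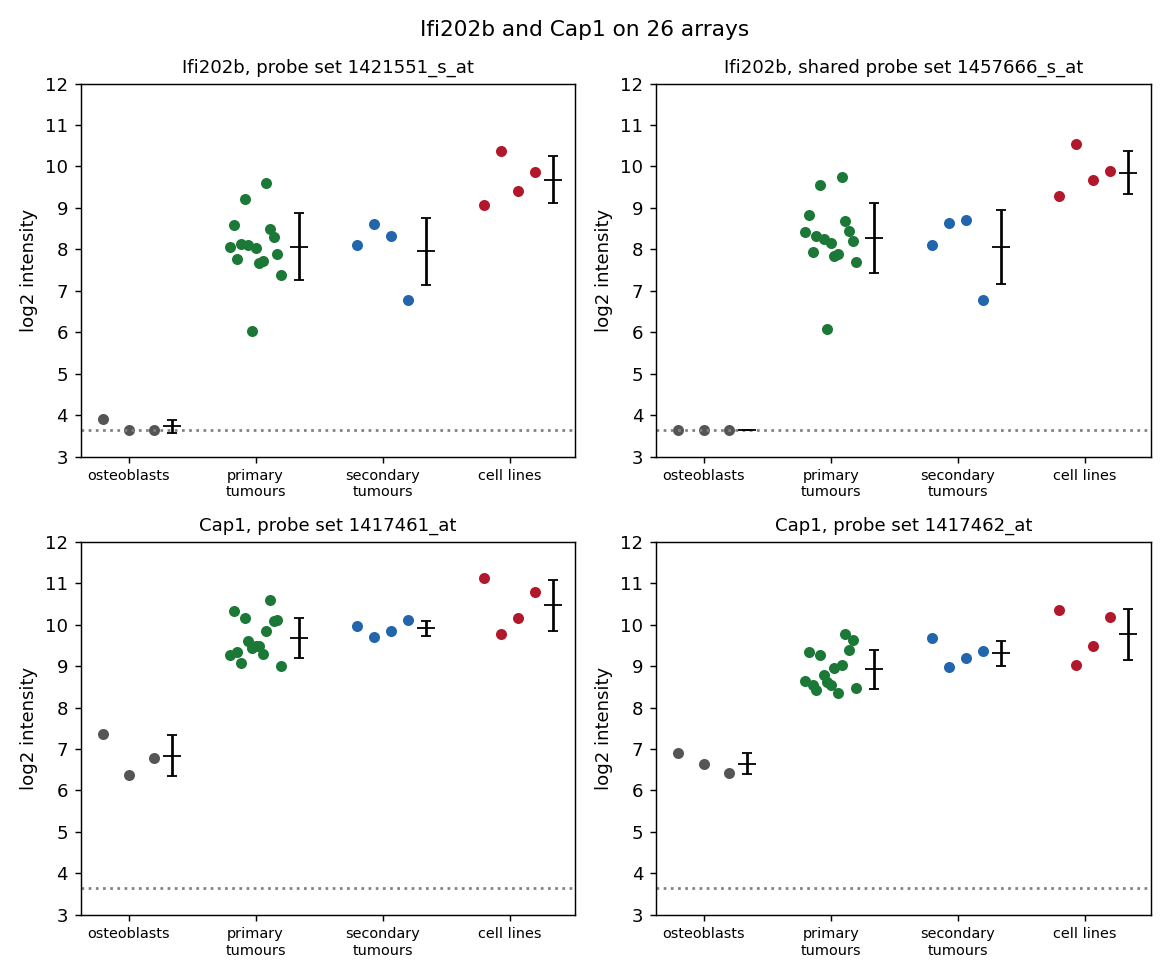
Each panel plots the log2 intensity of 1 probe set (vertical axis) on every array, by group; points are arrays, the bar beside each group is the mean with its SD, and the dotted line is the floor at 3.64. In all 4 panels every tumour and line lies above all 3 osteoblast cultures, and for Ifi202b the cultures lie at or close to the floor.

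**Figure D2:**
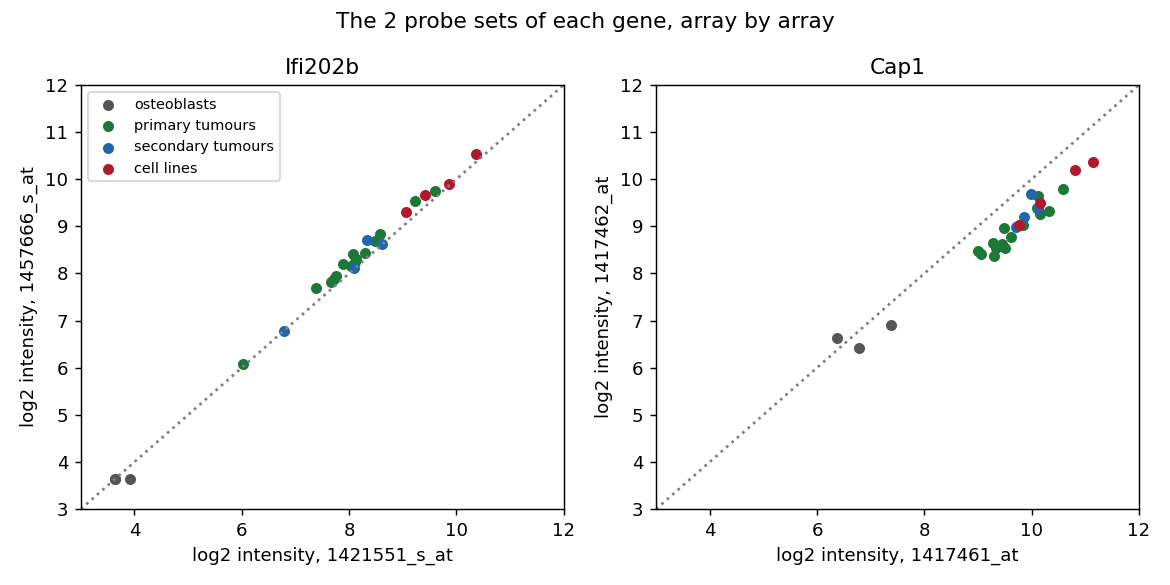
For each gene, log2 intensity on 1 probe set is plotted against the other, with 1 point per array and the dotted line marking equal values. The arrays fall along a line for both genes, with the osteoblasts apart at the low end.

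All 23 tumour and line arrays lay above all 3 osteoblast arrays on each of the 4 probe sets, which held for 3.49% of the 27308 probe sets tested. A probe set is called when limma's adjusted p (Benjamini-Hochberg over all probe sets tested) is below 0.05 and the change is at least 2-fold. All 4 members were called higher than osteoblasts in each of the 3 contrasts. Of all probe sets, 22.2% were called in primary tumours (11% higher, 11.1% lower), 22.9% in secondary tumours (12.9% higher, 10% lower) and 7.35% in cell lines (1.54% higher, 5.82% lower). Nothing is read from these counts, because the contrasts selected the genes. By the smallest of its 3 differences, Ifi202b ranked 1 of 12887 genes (4.22) and Cap1 2 (2.83). The next genes were Cdkn2a, which encodes the tumour suppressors p16 and p19Arf (2.29), the homeobox gene Lhx8 (2.29), the transcription factor Runx3 (2.21) and the homeobox gene Alx1 (2.21). Within single contrasts the members ranked less high, except in the lines: Ifi202b was 23rd in primary tumours, 26th in secondary tumours and 1st in cell lines, and Cap1 was 109th, 98th and 10th.

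Among the osteosarcoma groups, which the choice of the genes did not compare, Ifi202b was higher in cell lines than in primary tumours. On 1421551_s_at the difference was 1.61 ± 0.40 on the log2 scale (SE; 3.06-fold; limma adjusted p = 0.00222), and on the shared probe set 1.58 ± 0.41 (3.00-fold; limma adjusted p = 0.00354). Both were called, where 15.3% of probe sets were called, 4.52% higher in the lines and 10.8% lower. Lines 179 and 213 lay above every primary tumour on both probe sets, while lines 176 and 182 lay inside the primary tumours' range. Leaving out any 1 array kept the differences between 1.38 and 1.82 on 1421551_s_at and between 1.35 and 1.77 on the shared probe set.

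Cap1 was also higher in cell lines than in primary tumours, by less. The difference was 0.79 ± 0.26 (SE; 1.73-fold; limma adjusted p = 0.0169) on 1417461_at and 0.85 ± 0.25 (1.80-fold; limma adjusted p = 0.00819) on 1417462_at. Both passed the adjusted p and missed the 2-fold rule; 41.2% of probe sets passed the adjusted p in this comparison at any fold. Lines 176 and 213 were above every primary tumour on both probe sets, and line 179 was the lowest line. Single lines decided the call: without line 179 both probe sets were called (1.02 and 1.09; limma adjusted p = 0.00673 and 0.00258), and without line 176 neither passed the adjusted p (limma adjusted p = 0.113 and 0.0605).

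Against the secondary tumours, the lines were higher in Ifi202b and not distinguishable in Cap1. Ifi202b differed by 1.72 ± 0.50 (SE; 3.30-fold; limma adjusted p = 0.00957) on 1421551_s_at and by 1.79 ± 0.52 (3.46-fold; limma adjusted p = 0.00954) on the shared probe set, both called, where 17.6% of probe sets were called, 4.67% higher and 12.9% lower. All 4 lines lay above all 4 secondary tumours on both, which held for 11.2% of probe sets. Without secondary tumour 94 the shared probe set was no longer called (1.37; limma adjusted p = 0.051), and 1421551_s_at stayed just inside the threshold (1.33; limma adjusted p = 0.0499). For Cap1 the differences were 0.55 ± 0.33 (SE; limma adjusted p = 0.190) and 0.46 ± 0.31 (limma adjusted p = 0.255), with 3 and 2 of the 4 lines above all secondary tumours.

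Secondary and primary tumours did not differ beyond their spread in either gene. The differences were -0.11 ± 0.40 and -0.21 ± 0.41 for Ifi202b (SE; limma adjusted p = 0.944 and 0.887) and 0.24 ± 0.26 and 0.39 ± 0.25 for Cap1 (limma adjusted p = 0.766 and 0.601). Few genes did: 2 of 27308 probe sets were called, or 0.00732%. Among the osteosarcoma groups, primary and secondary tumours thus had no distinguishable order in Ifi202b and the lines lay above both. In Cap1 none of these 3 groups was separated from another by a call.

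Matched tumour numbers gave a closer comparison for 4 secondary tumours. On 1421551_s_at, secondary minus primary was 0.34 in tumour 29, 0.48 in 64, -0.89 in 66 and 0.76 in 94, a mean of 0.17 ± 0.73 (SD, 4 pairs; exact paired permutation test, two-sided p = 0.75). On Cap1 1417461_at it was 0.64, 0.63, -0.30 and 0.68 in the same order, a mean of 0.41 ± 0.48 (exact p = 0.25). The second probe sets gave 0.09 for Ifi202b (exact p = 0.75) and 0.60 ± 0.50 for Cap1 (exact p = 0.25). With 4 pairs the smallest p this test allows is 0.125, and after adjustment over the 8 paired tests the values were 0.75 for Ifi202b and 0.333 for Cap1. Tumour 94 had the lowest Ifi202b of the primary tumours and its transplant the lowest of the secondary tumours.

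The 3 lines that share a number with a primary tumour were higher than that tumour on all 4 probe sets. On 1421551_s_at the difference was 1.03 in 176, 2.71 in 179 and 1.69 in 182, and on Cap1 1417461_at it was 1.64, 0.28 and 0.85. Line 179 had the largest of the 3 differences in Ifi202b and the smallest in Cap1. The arrays that share these numbers did not otherwise deviate together, so these differences are read as values. The exact paired permutation test on the 3 pairs could give no p below 0.25, the value on all 4 probe sets. These tests were among the 8 adjusted together above.

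**Figure D3:**
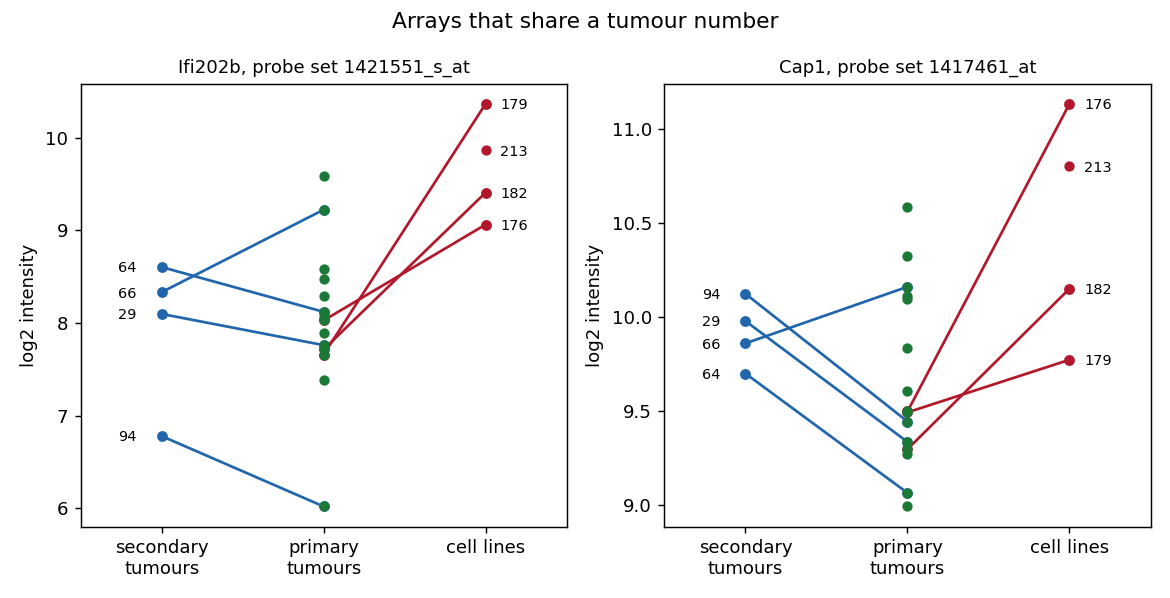
Log2 intensity (vertical axis) of Ifi202b 1421551_s_at and Cap1 1417461_at in secondary tumours, primary tumours and cell lines, with lines joining arrays of the same tumour number. Secondary tumours 29, 64 and 94 lie above their primary tumours and 66 below in both genes, and lines 176, 179 and 182 lie above the primary tumours of the same number.

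Other members of the Ifi200 family did not share the high levels of Ifi202b. Of the 5 other family genes with a kept probe set, 0 were called higher and 2 lower than osteoblasts in primary tumours, 0 and 1 in cell lines, and 0 and 2 in secondary tumours; their median differences were -0.06, -0.99 and -0.05, against medians over all genes of -0.07, -0.10 and -0.02. Mndal, which lies 4 genes from Ifi202b in the cluster, fell by 3.16 ± 0.62 on the log2 scale in primary tumours on probe set 1452231_x_at (SE; limma adjusted p = 0.000214) and fell by 2.43 ± 0.75 in secondary tumours (limma adjusted p = 0.0126). In cell lines it fell by 2.33 ± 0.75 (limma adjusted p = 0.0405), a call lost under 8 of 17 alternatives, among them leaving out any 1 osteoblast culture or line 176 or 182. The other Mndal probe set, 1426906_at, fell by 2.60 ± 0.66 in primary tumours (limma adjusted p = 0.00229) and stood at -1.90 in lines, not called (limma adjusted p = 0.122). In secondary tumours it fell by 2.03 ± 0.80 (limma adjusted p = 0.0452), a call lost under 9 of 17 alternatives, among them leaving out any 1 osteoblast culture or tumour 29, 66 or 94. Ifi204, 6 genes from Ifi202b, fell by 2.58 ± 0.55 in primary tumours (limma adjusted p = 0.000472) and fell by 2.35 ± 0.66 in secondary tumours (limma adjusted p = 0.0067), and stood at -0.99 in cell lines (limma adjusted p = 0.364).

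The remaining 3 family members were not called against osteoblasts. Aim2 differed from osteoblasts by 0.13 in primary tumours, 0.30 in cell lines and -0.01 in secondary tumours, and Ifi209 by 0.17, 0.34 and 0.22. Ifi207 stood at -0.06, -1.65 (limma adjusted p = 0.126) and -0.05, with 2 of the 4 lines at the floor. Between lines and primary tumours, Ifi204 rose by 1.59 ± 0.49 (SE; limma adjusted p = 0.0112). That call was lost without line 179 or 213, and in a fit blocked on tumour number. Ifi207 fell by 1.60 ± 0.52 (limma adjusted p = 0.0158), a call lost without line 176, 179 or 182 and with the floor at the 40th percentile. It was also lost among arrays with a high ratio of hybridisation controls (0.827 to 0.955). The Ifi207 difference ran from -2.44 to -0.57 over the alternatives. Ifi203, next to Ifi202b, had no kept probe set. The family's probe sets may share target sequence, so signals of near-identical members may be mixed.

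Few genes beside Cap1 were measured. Of the 20 nearest genes in the RefSeq order, 8 had a probe set and 4 a kept one. Ppt1, a lysosomal thioesterase adjacent to Cap1, differed from osteoblasts by -0.57, -0.19 and -0.50 in primary tumours, cell lines and secondary tumours. Trit1, a tRNA-modifying enzyme, stood at 0.42, 0.50 and 0.60, Ppie, a peptidyl-prolyl isomerase, at 0.37, 0.29 and 0.49, and Mfsd2a, a lipid transporter, at -0.06, 0.86 and -0.33. None of the 4 was called against osteoblasts, a number too small to set against the shares called overall. Mfsd2a was higher in lines than in secondary tumours by 1.20 ± 0.24 (SE; limma adjusted p = 0.000491), a call lost with the floor at the 40th percentile or with an offset in its place.

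**Figure D4:**
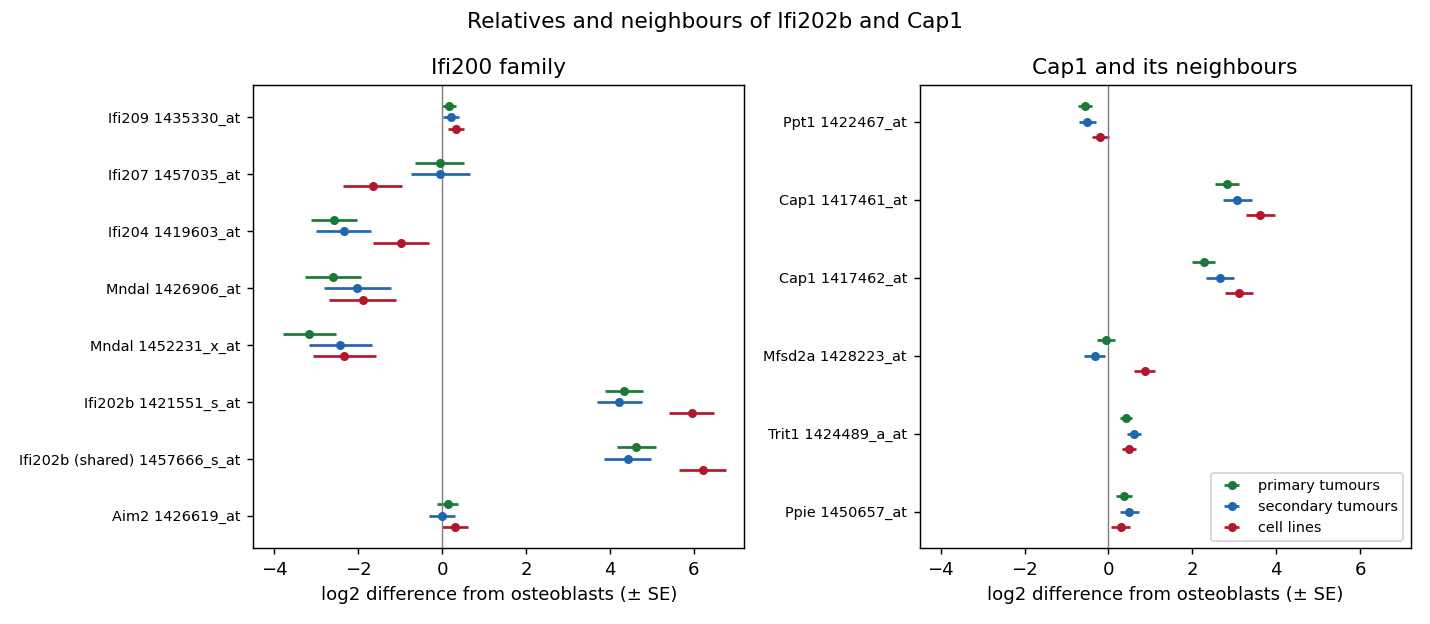
Log2 difference from osteoblasts with its SE (horizontal axis) for Ifi200 family probe sets (left) and for Cap1 with its measured neighbours (right), in primary tumours, secondary tumours and cell lines. Both Ifi202b and both Cap1 probe sets stand to the right, while Mndal and Ifi204 lie left of 0 and the neighbours of Cap1 lie close to it.

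Interferon-stimulated genes, a class to which Ifi202b belongs, were mostly level or lower where Ifi202b was above osteoblasts. The list's members and all lists below were chosen with earlier results of these data known, so their counts are descriptions. Of 35 genes kept, 1 was called higher and 15 lower in primary tumours (median -1.14), 0 and 0 in cell lines (median -0.17), and 2 and 7 in secondary tumours (median -0.76). Over all probe sets 11% were called higher and 11.1% lower in primary tumours, 1.54% and 5.82% in lines, and 12.9% and 10% in secondary tumours. Over the alternatives the number called lower ran from 5 to 18 in primary tumours and from 1 to 14 in secondary tumours. In primary tumours the 15 fell to 5 without osteoblast culture 1 and to 7 without culture 2. In secondary tumours the 7 fell to 1 without culture 1, without culture 2 or without tumour 94, to 3 without tumour 29 and to 4 without tumour 64 or 66, and the 2 higher to 0 without culture 2 and to 1 without tumour 66. In primary tumours Bst2, which tethers budding virions, fell by 3.19 ± 0.69 (SE; limma adjusted p = 0.000571) and the GTPase Iigp1 fell by 3.41 ± 0.74 (limma adjusted p = 0.00055). Rsad2, which encodes the antiviral enzyme viperin, was higher by 1.71 ± 0.46 in primary tumours (limma adjusted p = 0.00394) and by 1.71 ± 0.56 in secondary tumours (limma adjusted p = 0.0175), where the call was lost without culture 2. Ifi35 was the other gene called higher in secondary tumours (1.11).

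Between cell lines and primary tumours the list did move the same way as Ifi202b: 12 of 35 genes were called higher and 0 lower (median 1.00), against 4.52% and 10.8% of all probe sets. Bst2 rose by 3.24 ± 0.62 (SE; limma adjusted p = 0.000201) and Usp18, which removes Isg15 from proteins, by 2.48 ± 0.69 (limma adjusted p = 0.00575), a call lost without line 213. The count depended on single lines: it was 23 without line 176, 5 without line 179 and 4 without line 213. The list mean ran from 6.09 in line 176 to 9.14 in line 213, and in primary tumours from 6.14 to 8.44, while osteoblasts, with Ifi202b at or near the floor, lay between 7.93 and 8.31. Secondary tumours had 0 genes called either way against primary tumours, and lines against secondary tumours 2 higher and 1 lower; the 2 became 12 without line 176, 0 without line 179 or 213, 1 without secondary tumour 94 and 3 without secondary tumour 66.

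The receptors and signalling genes upstream of interferon responses, and the DNA-sensing genes beside Aim2, are read against 22.2% (primary tumours), 7.35% (lines) and 22.9% (secondary tumours) of all probe sets called, from which lists this short cannot be set apart. Of 11 interferon receptor and signalling genes, 0 were called higher against osteoblasts, and Jak1, the kinase on which interferon receptors depend, was the 1 gene called lower: it fell by 1.19 ± 0.19 in primary tumours (SE; limma adjusted p = 2e-05) and fell by 1.07 ± 0.23 in secondary tumours (limma adjusted p = 0.000764). Both Jak1 calls were lost under quantile normalization, and the one in secondary tumours without tumour 64 or 66. The receptor chain Ifnar1 differed by at most 0.19. Of 10 DNA-sensing and inflammasome genes, 0 were called higher against osteoblasts. Pycard, the adaptor that Aim2 uses, fell by 1.82 ± 0.54 in cell lines (limma adjusted p = 0.0266) and fell by 1.59 ± 0.54 in secondary tumours (limma adjusted p = 0.0221), and stood at -1.05 in primary tumours (limma adjusted p = 0.0563). Both Pycard calls were lost without any 1 of the osteoblast cultures, the one in lines also without line 176 or 213, and the one in secondary tumours without tumour 66 or 94.

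Actin turnover genes other than Cap1 were called about as often as probe sets in general. Of 29 kept, 4 were called higher and 1 lower than osteoblasts in primary tumours (median -0.07; 22.2% of all probe sets called), 2 and 1 in cell lines (median -0.24; 7.35%), and 3 and 3 in secondary tumours (median 0.02; 22.9%). The sign of the primary tumour and line medians changed under quantile normalization (0.15 and 0.03). Cap2, the paralogue of Cap1, rose by 2.99 ± 0.48 in cell lines (SE; limma adjusted p = 0.000137) and was 1.85 ± 0.36 above primary tumours there (limma adjusted p = 0.000227). In primary tumours Cap2 was higher than osteoblasts by 1.14 ± 0.40 (limma adjusted p = 0.0218), a call lost under 7 of 29 alternatives, among them leaving out culture 2 or 3; in secondary tumours it stood at 0.88 (limma adjusted p = 0.149). Coro1c, a coronin of many cell types, was higher by 1.09 ± 0.20 in primary tumours (limma adjusted p = 0.000116), a call lost with the primary tumours of a low ratio of hybridisation controls alone, and by 1.04 ± 0.24 in lines (limma adjusted p = 0.0054), a call lost without culture 3 or line 213.

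The cofilins, from which Cap1 frees actin, did not follow Cap1. Cfl1 stood at 0.38, 0.08 and 0.35 in primary tumours, cell lines and secondary tumours, none past the test, and Cfl2, the muscle form, fell by 1.70 ± 0.27 in primary tumours (SE; limma adjusted p = 2.04e-05) and fell by 1.60 ± 0.33 in secondary tumours (limma adjusted p = 0.000486). Limk1, a kinase that inactivates cofilin, rose by 1.79 ± 0.26 in primary tumours (limma adjusted p = 5.18e-06). Its difference from osteoblasts was 1.83 in secondary tumours, which was called, and 0.66 in cell lines, which was not. Coro1a, the coronin of blood cells, rose by 3.70 ± 0.54 in primary tumours (limma adjusted p = 6.42e-06) and stood at 0.19 in cell lines (limma adjusted p = 0.896). Cap1 was high in both, which is the property it was chosen on, so nothing is read from this difference between the 2 genes.

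**Figure D5:**
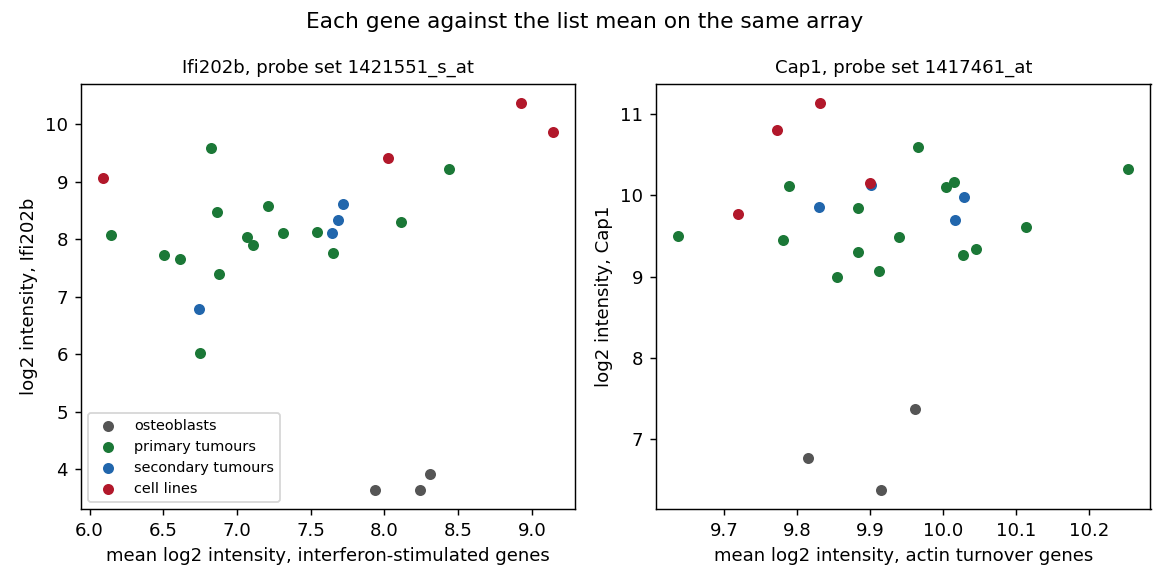
Log2 intensity of Ifi202b against the mean of the interferon-stimulated genes (left) and of Cap1 against the mean of the actin turnover genes (right), 1 point per array. Osteoblasts combine a high interferon list mean (7.93 to 8.31) with Ifi202b at or near the floor. The actin list mean of osteoblasts overlaps that of the other groups, while their Cap1 is lower than on every other array. Among the osteosarcoma groups Cap1 overlaps too.

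The tumours hold other cells than the cultures do, and in bulk samples fewer cells of a type and less RNA per cell cannot be told apart. Of 15 macrophage markers, 15 were called higher than osteoblasts in primary tumours and 12 in secondary tumours, and 0 in cell lines. The list mean was 7.84 to 9.95 in primary tumours, 7.82 to 9.47 in secondary tumours, 4.96 to 5.22 in cell lines and 5.05 to 5.14 in osteoblasts. Cd163 was at the floor on every osteoblast and line array, and C1qa on every osteoblast array. The cell lines had macrophage marker means close to those of osteoblasts and the highest group means of Ifi202b and Cap1. Endothelial markers were called higher in both tumour groups (8 of 11 in each) and 0 were in the lines. Of 10 skeletal muscle markers, 8 were called higher than osteoblasts in primary tumours, 0 in cell lines and 0 in secondary tumours. Their list mean was nevertheless 9.18, 7.83 and 7.08 in lines 179, 182 and 213 and 4.79 in line 176, against 4.83 to 4.89 in osteoblasts; its part in the Ifi202b and Cap1 values was not tested. For T and NK cells 2 markers were kept and for B and plasma cells 1, with 0 called in any comparison.

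The osteoblast cultures also stood apart in fat cell genes. All 6 adipocyte markers kept were called lower in each of the 3 osteosarcoma groups, and the list mean was 11.47 to 11.52 in osteoblasts and at most 7.56 elsewhere; the part of this difference in the Ifi202b and Cap1 values was not tested. Osteoblast markers were present in every group, with list means of 11.22 to 11.35 in osteoblasts, 8.60 to 12.18 in primary tumours, 8.35 upward in lines (median 9.36) and 10.24 to 12.05 in secondary tumours.

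Array quality also moved with the groups. The ratio of the spiked hybridisation controls bioB and bioC fell into a low range (0.291 to 0.387: all osteoblasts, 7 primary tumours and all secondary tumours) and a high range (0.827 to 0.955: all lines and 8 primary tumours); the labels name no batch. Within the high range, lines exceeded primary tumours by 1.54 on Ifi202b 1421551_s_at (limma adjusted p = 0.00773) and 1.52 on the shared probe set (limma adjusted p = 0.00674), and on Cap1 by 0.73 and 0.74 (limma adjusted p = 0.0951 and 0.0966). Within the low range, secondary minus primary was -0.03 and -0.13 for Ifi202b and 0.31 and 0.51 for Cap1, none past the test. Lines and secondary tumours, or lines and osteoblasts, lie in different ranges, so that group and range cannot be told apart there. The Gapdh 5′ to 3′ ratio, a sign of RNA quality, also differed: it was 1.04 to 1.08 in lines, 0.916 to 0.967 in osteoblasts, 0.839 to 1.08 in secondary tumours, and 0.656 to 0.845 in the low-range and 0.909 to 1.03 in the high-range primary tumours. All 4 lines lay above all 15 primary tumours in it; its part in the Ifi202b and Cap1 differences was not tested.

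Over the 15 primary tumours Ifi202b and Cap1 varied together only loosely. Pearson's r was 0.502 (permutation p = 0.0469, adjusted over 5 relations 0.117) and Spearman's rho 0.636 (permutation p = 0.0124, adjusted 0.0622); r was 0.483 without the 2 tumours farthest from the median of Cap1. Within the low and high control ranges (7 and 8 tumours) r was 0.500 and 0.519, and without the 2 farthest tumours of each -0.283 and 0.357. The value of the low range thus rests on tumours 12 and 66, while r over all 15 tumours changed little without its 2 farthest. Ifi202b with the macrophage marker mean gave r = 0.595 (permutation p = 0.0175, adjusted 0.0874) and rho 0.507 (permutation p = 0.0562, adjusted 0.140), and r was 0.694 without the 2 tumours farthest from the median of the markers. Within the ranges r was 0.519 and 0.812, and without the 2 farthest tumours of each 0.590 and 0.165, so the value of the high range rests on tumours 183 and 353. Ifi202b with the interferon-stimulated mean gave r = 0.356 (adjusted permutation p = 0.252) and rho 0.421 (adjusted permutation p = 0.199), and r fell to 0.117 without the 2 farthest tumours. Cap1 with the actin turnover mean gave r = 0.316 and rho 0.268, and with the macrophage mean r = 0.314 and rho 0.314. The value with the actin mean moved with the setting: r was 0.106 without the 2 farthest tumours and 0.485 under quantile normalization. Within the low and high ranges it was 0.601 and 0.348. None of the 5 passed after adjustment.

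Genes with a pattern most like each member were named by Pearson's r over all 26 arrays, a description in which the gap between osteoblasts and the rest carries much weight. For Ifi202b they were Yae1d1 (0.84), the Notch ligand Dll1 (0.83), Gtpbp6 (0.82), the tyrosyl-tRNA synthetase Yars (0.81), Trim66 (0.81), Wdr4 (0.80), the Notch ligand Dll4 (0.80) and Bcat1, a branched-chain amino acid transaminase (0.80). For Cap1 they were Trim66 (0.87), the prolyl-tRNA synthetase Pars2 (0.85), Gatb (0.80), Yae1d1 (0.79), Usp13 (0.79), Yars (0.78), Bcat1 (0.78) and Lsm12 (0.78). Yae1d1, Yars, Trim66 and Bcat1 stood in both lists. Over the 15 primary tumours alone the genes were different: the protease Capn1 (0.87), the leukocyte antigen Cd52 (0.82), the initiation factor subunit Eif2s2 (0.82), Nme1 (0.79) and Sema6d (0.79) for Ifi202b, and 2310001H17Rik (0.77), the leukocyte integrin Itgal (0.74), Strbp (0.74), Ppp1r15a (0.73) and Trib3 (0.72) for Cap1. These are the highest values among 12887 genes over 15 arrays, so picking them alone can make r high, and they were not tested.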

How the data were processed

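Per the labels' protocols, poly(A)-primed cDNA was copied by T7 polymerase into biotin-labelled cRNA for 1-colour oligonucleotide arrays. The deposited values are linear intensities, 1 per probe set (0.497 to 21734.1); how the authors summarised and scaled them is not given in the sources used here. Array medians were 44.4 to 58.8, and values were used without further normalization. Controls (64 probe sets) were removed. Values were raised to an intensity floor of 12.5 and taken to log2, and probe sets with at least 3 arrays above 52.6, the median of all values, were kept. Platform annotation gave 34958 probe sets 1 symbol, 932 several and 9211 none; for lists and ranks, a gene took its kept probe set of highest mean. The RefSeq gene table gave gene order. All 6 contrasts were fitted with limma 3.58.1 in R 4.3.3 on all 26 arrays with no covariate. The fit was tried on simulated data for the contrast of cell lines with primary tumours only. Paired and correlation tests used SciPy 1.17.1 in Python 3.11.15.

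The members and lists were chosen with earlier results of these data known. Named genes were the members, their neighbours in gene order, the genes next to them in rank, the most alike genes (8 over all arrays and 5 over primary tumours) and list genes. Tumour numbers pair secondary with primary tumours: deviations from group means correlated at 0.392 (29), 0.335 (64), 0.233 (66) and 0.625 (94), and each was highest with its own number. Alternatives were another floor, an offset, normalizations, filters, array weights, 1 probe set per gene, only the compared groups, a replicate block, control ratio ranges and leaving out each array of the compared groups.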

Additional observations from a re-analysis of the deposited data

How the results depend on the processing

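No difference named for Ifi202b or Cap1 changed sign by an alternative, except secondary minus primary tumours in Ifi202b, which was near 0. Counts of called probe sets moved with the filter and the unit tested, which change how many probe sets are tested. With the filter at the 75th percentile they were 3543 (primary tumours against osteoblasts), 1328 (lines against osteoblasts), 3609 (secondary tumours against osteoblasts), 1 (secondary against primary), 2417 (lines against primary) and 2689 (lines against secondary). With 1 probe set per gene they were 2378, 1059, 2381, 1, 1514 and 1697 in the same order. Secondary against primary tumours also gave 1 with the floor at the 40th percentile, 4 with only the compared groups, 4 under the replicate block and 10 within the low control range; the cause was not tested. Leaving out 1 array gave 5473 to 6329, 1427 to 2105, 5465 to 6181, 2 to 4 (4 without secondary tumour 66), 3860 to 4462 and 4403 to 5058, again in that order.

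The replicate block pairs arrays by tumour number and keeps only arrays whose number occurs in both groups. With it, secondary minus primary was 0.17 and 0.09 for Ifi202b and 0.41 and 0.60 for Cap1 (limma adjusted p = 0.805, 0.892, 0.402 and 0.302). Lines 176, 179 and 182 carry the number of a primary tumour, but their deviations from group means correlated little with those of that tumour (0.0471, 0.0471 and 0.0165). None was highest with its own number. This does not show whether a line came from that tumour. With 3 such pairs the exact paired permutation test could give no p below 0.25, the value on all 4 probe sets. Blocked on tumour number, with only these 3 pairs in the fit, lines against primary tumours gave 2389 calls, against 4180 in the fit of all arrays. Ifi202b then differed by 1.81 and 1.88 (limma adjusted p = 0.0475 and 0.0413) and Cap1 by 0.92 and 1.01 (limma adjusted p = 0.130 and 0.153). Of the 35 interferon-stimulated genes 0 were then called. The block and the smaller number of arrays cannot be told apart in these counts. The bound on the shared Ifi202b probe set over osteoblasts in primary tumours ran from 3.21 to 5.92 on the log2 scale with the floor at the 40th and the 5th percentile. The share of higher calls in lines against osteoblasts was 20.9%, and 31.1% under quantile normalization and 39.4% under scaling to the 75th percentile; against primary tumours it was 29.5%, and 41.0% under quantile normalization; against secondary tumours it was 26.5%, 42.4% and 40.2%. That scaling moved the median of all probe sets in lines against osteoblasts from -0.06 to 0.11.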

Other observations

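These patterns were noticed after the values were seen and were not tested. The 3 secondary tumours labelled as transplants were higher than their primary tumours on all 4 probe sets, and number 66, labelled as grown from a cell line, was lower on all 4: by 0.89 and 0.82 on the Ifi202b probe sets and by 0.30 and 0.06 on the Cap1 probe sets, on the log2 scale. Line 179 was the highest of the 4 lines on Ifi202b and the lowest on Cap1, and line 176 the reverse, on both probe sets of each gene; lines 213 and 182 lay between them, in that order, for both genes.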
